A study of Mus musculus with 104 samples.

Results

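The collagen genes were taken as all genes whose symbol reads Col, a number, the letter a and a number, such as Col3a1. On the arrays, 42 of 18193 genes met that definition, and each was read from the probe set with the highest mean over all arrays among those that match a single gene symbol. They had 82 such probe sets, and 27 of the 42 genes had several. Col28a1 and Col6a6 have matching symbols in the RefSeq gene table and were not analysed here, since no probe set matched either of them alone.

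The series holds array profiles of 52 mouse regions with 2 arrays each: the basal forebrain with the preoptic area (POA/BF), punched from frozen slices on both sides, 48 other regions of brain and spinal cord, and the retina, pituitary and pineal gland. All were male Balb/c mice aged 7 to 8 weeks, kept first in a light and dark cycle; the protocol allows for sampling in that cycle or in darkness, and which arrays each concerns is not given. Each array held total RNA pooled from samples taken every 4 hours at 6 time points, and each region was sampled independently on 2 occasions. Separate animals are not stated for a region's arrays, so p-values measure only the spread between these arrays, which may be technical.

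Collagens are extracellular proteins whose chains wind around each other into a stiff helix. Fibrillar collagens form the fibres of connective tissue, type IV collagens form the sheet-like networks of basement membranes around vessels and under the pia, and other types decorate fibrils, build short networks or stay anchored in the cell membrane. In the adult brain, fibrillar collagens are known from the fibroblasts of the meninges and around vessels, whereas some fibril-associated and transmembrane collagens are made by neurons.

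Values are log2 array intensities after the authors' RMA normalization, so a difference of 1 is a 2-fold change, and they ran from 3.88 to 15.15 with a median of 7.39. Levels of different genes are not compared, since each probe set has its own brightness. A collagen gene's SD between the 2 arrays of a region had a median of 0.08, from 0.05 to 0.16 over the members. In 37 of the 42 genes the highest region mean lay above 7.39. Folds against means below that value may understate the change. In this bulk tissue, fewer cells of a type and less RNA per cell cannot be told apart.

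Several arrays carried RNA that their label does not name. The retina arrays held the growth hormone mRNA Gh at 14.61 and 14.76, against 14.65 and 14.76 in the pituitary, and all 8 anterior pituitary markers were called higher there than in brain and spinal cord. They also held the corneal keratin Krt12, a gene chosen after its values were seen, at a mean of 13.97, against a median of 5.87 over 49 regions of brain and spinal cord, of which the olfactory tubercle was highest at 9.70. The median eminence had mean levels of the pituitary hormone subunits Cga of 12.62 and Tshb of 10.67, against medians of 6.61 and 7.08 over the same regions, whereas Gh read a mean of 7.78 there, below the 7.83 of POA/BF. The levels of the spike-in hybridisation controls, which are added with the hybridisation mix, divided the regions other than POA/BF into 21 low and 30 high regions. POA/BF stayed out of both, because its control rows did not follow those of the other arrays (r = -0.44 across these rows).

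Regional differences were frequent among the collagen genes. The limma F test over the 52 regions called 34 of 42 at an adjusted p under 0.05 and a range of region means of at least 2-fold, where 60.3% of all genes were called. The median range was 1.98 on the log2 scale, against 1.24 over all genes. By structural class, the F test called 10 of 11 fibrillar chains, 5 of 6 type IV chains, 3 of 5 type VI chains, all 3 short-chain collagens, 6 of 9 fibril-associated collagens, all 4 transmembrane collagens, both multiplexins (Col15a1 and Col18a1) and the anchoring fibril collagen Col7a1. The largest ranges were 6.70 for Col3a1, 6.53 for Col8a1, 5.85 for Col8a2, 5.53 for Col17a1 and 5.43 for Col1a2. Not called were Col2a1, Col26a1, Col4a6, Col22a1, Col20a1, Col9a1, Col6a4 and Col6a5, with ranges from 0.97 down to 0.36, and Col6a5 was the single member whose adjusted p, 0.166, missed the threshold.

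The retina was the highest of the 52 regions for 19 collagen genes, the median eminence and the pineal gland for 4 each, and the pituitary for 3. Among the 49 regions of brain and spinal cord, the median eminence was highest for 10, the supraoptic nucleus for 6 and the pontine nucleus for 3. In 30 of the 42 genes both arrays of the highest region lay above every other array. The shares of all genes are not given for these counts, so they describe the members alone.

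**Figure D1:**
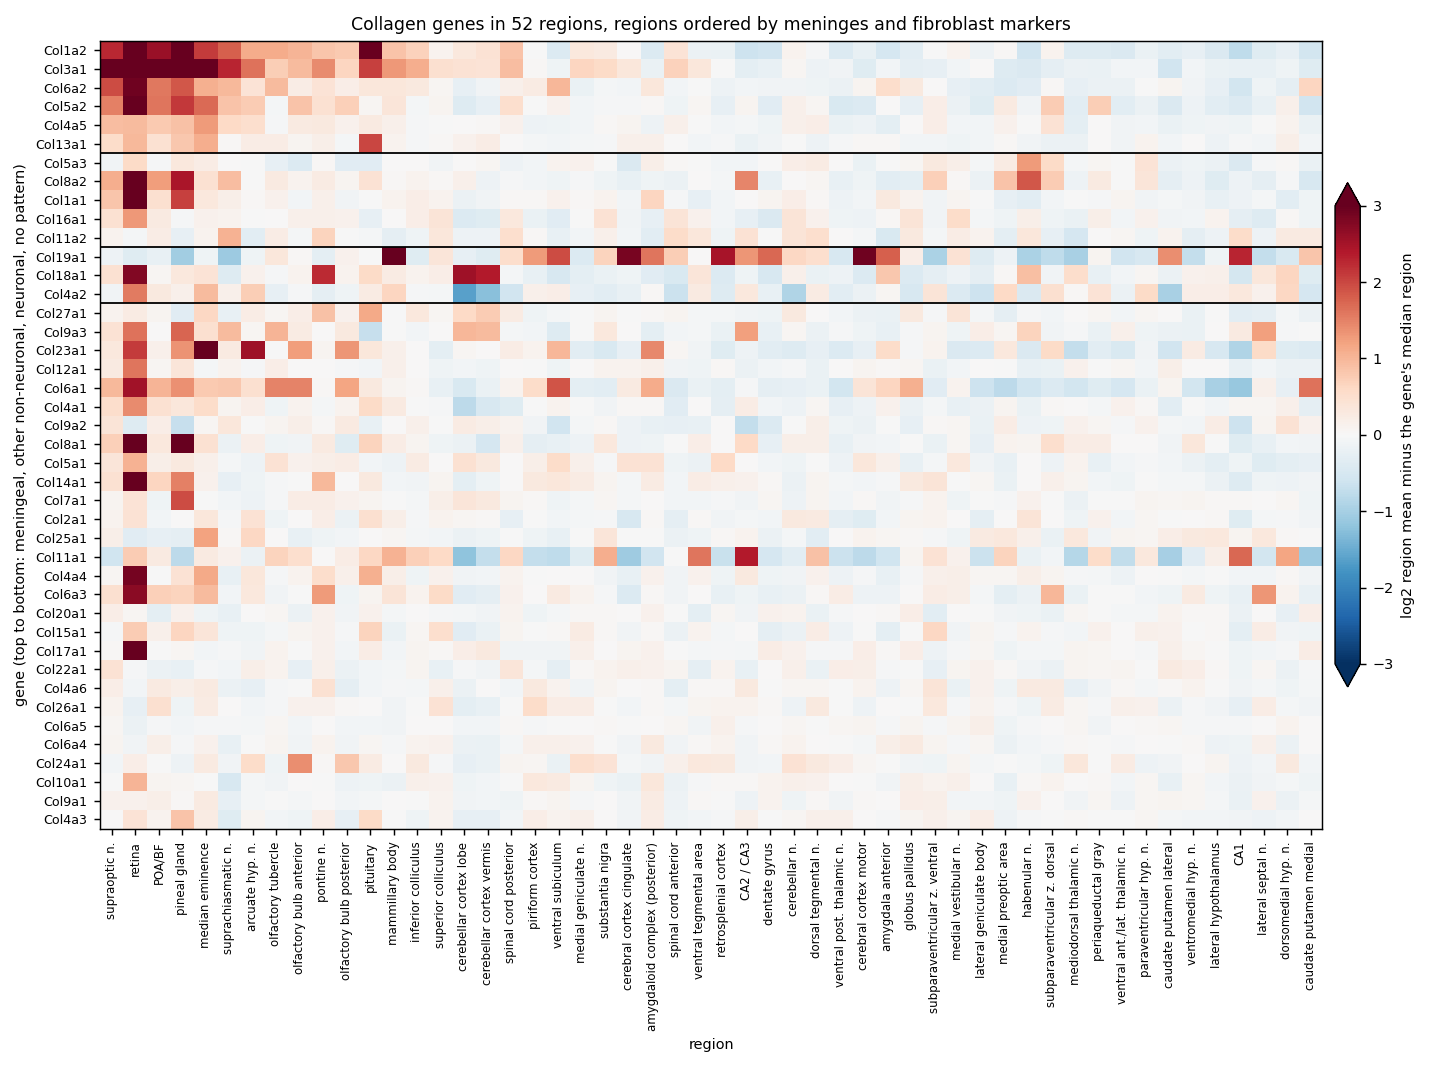
Each row is a collagen gene and each column a region; colour is the log2 region mean minus that gene's median region, capped at -3 and 3. Regions run from high to low meninges and fibroblast markers, and black lines divide the genes into 6 with a meningeal pattern, 5 with another non-neuronal pattern, 3 with a neuronal pattern and 28 with none.

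Meningeal and neuronal patterns were separated by the regional profile of marker genes. For each gene, Pearson's r was computed over the 49 region means of brain and spinal cord with 17 marker lists: 9 for non-neuronal cells, among them meninges and fibroblasts, and 8 for kinds of neurons. The list with the highest r named the pattern where r reached 0.6. The points share arrays and normalization, regions are not replicates, and a regional profile does not show which cell holds an mRNA, so these values are descriptions without a test. The meninges list followed the list for mural cells of vessels at r = 0.75 and the endothelial list at 0.58, so these sources are only partly separable.

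A meningeal pattern was found for 6 collagen genes, 14.3% of the members, where 1.93% of the genes outside the lists had it. A neuronal pattern was found for 3, or 7.14%, against 13.1% of those genes. Another 5 followed a different non-neuronal list, or 11.9% against 8.31%, and 28 followed none, where 76.6% of those genes followed none. With Spearman's rho in place of r, 3 genes had a meningeal pattern (Col1a2, Col3a1 and Col6a2) and 0 a neuronal one. The median r with the meninges list was 0.26 over the collagen genes and -0.01 over the genes outside the lists. The members nearest to the limit of 0.6 were Col11a2 inside, at 0.62, and Col27a1 outside, at 0.55.

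**Figure D2:**
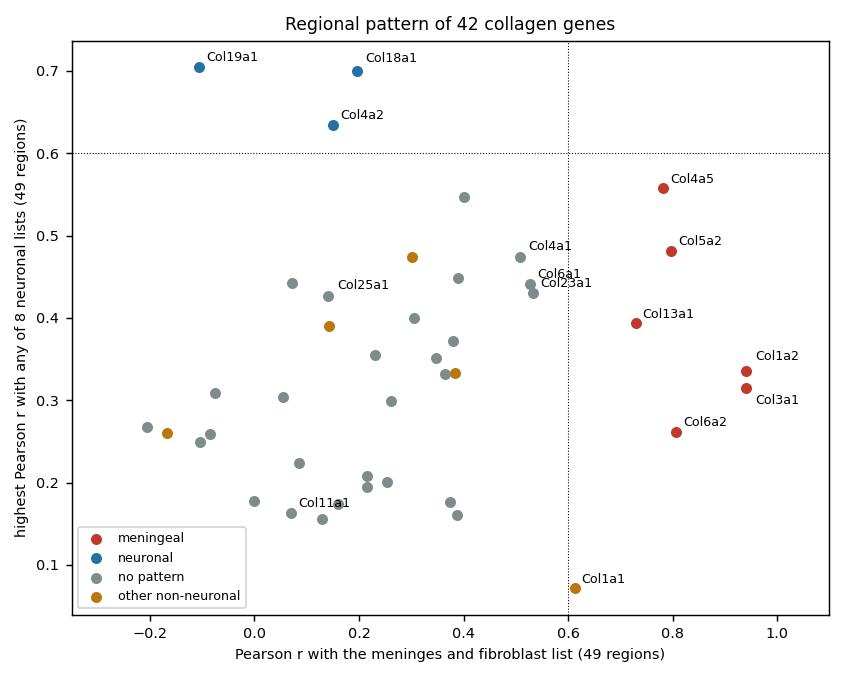
Each point is a collagen gene, placed by its Pearson r with the meninges and fibroblast list (x) and its highest r with any of 8 neuronal lists (y) over 49 region means; dotted lines mark 0.6. The 6 meningeal genes lie at the right between 0.73 and 0.94, and Col19a1, Col18a1 and Col4a2 at the top between 0.63 and 0.71.

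The fibrillar chains Col1a2 and Col3a1 followed the meninges list most closely, both at r = 0.94. Col1a2, a chain of type I collagen, read 11.18 and 11.36 in POA/BF, 10.88 and 11.03 in the supraoptic nucleus and 10.78 and 10.79 in the median eminence, and a mean of 7.93 in CA1 of the hippocampus. Col3a1, which forms type III fibrils in stretchable tissue, read 10.22 and 10.28 in POA/BF, 9.66 and 9.93 in the median eminence and 9.51 and 9.91 in the supraoptic nucleus. The next region for Col3a1 among those of brain and spinal cord was the suprachiasmatic nucleus, at 8.34 and 8.88, so the first 3 regions stood clear of it, and its lowest region was the lateral caudate putamen at 5.74. Col3a1 lay above 7.39 in 11 of the 52 regions, so much of its profile rests on dim values. The supraoptic nucleus and median eminence lie at the ventral surface of the brain, and whether this position bears on their levels was not tested. The mean markers of meninges and fibroblasts ranked the supraoptic nucleus 1, POA/BF 3 and the median eminence 5 of 52 regions.

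The other members with a meningeal pattern were Col6a2 at r = 0.81, Col5a2 at 0.80, Col4a5 at 0.78 and Col13a1 at 0.73. Col6a2, a chain of the beaded filaments of type VI collagen, read 10.89 and 11.14 in the supraoptic nucleus and 10.59 and 10.68 in POA/BF, against a median region of 9.06. Col5a2, a chain that helps to start fibrils, read 8.99 and 9.21 in the median eminence and 8.93 and 9.08 in POA/BF, against 7.39. Col4a5, a basement membrane chain, was highest in the median eminence at 8.35 and 8.69, and its second probe set gave r = 0.79. Col13a1, a transmembrane collagen, was below 7.39 in all but 3 regions, so its pattern rests on dim values. Within the low and the high regions of the hybridisation controls, the 6 genes kept r values of 0.67 to 0.92 and 0.75 to 0.95 with the meninges list.

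**Figure D3:**
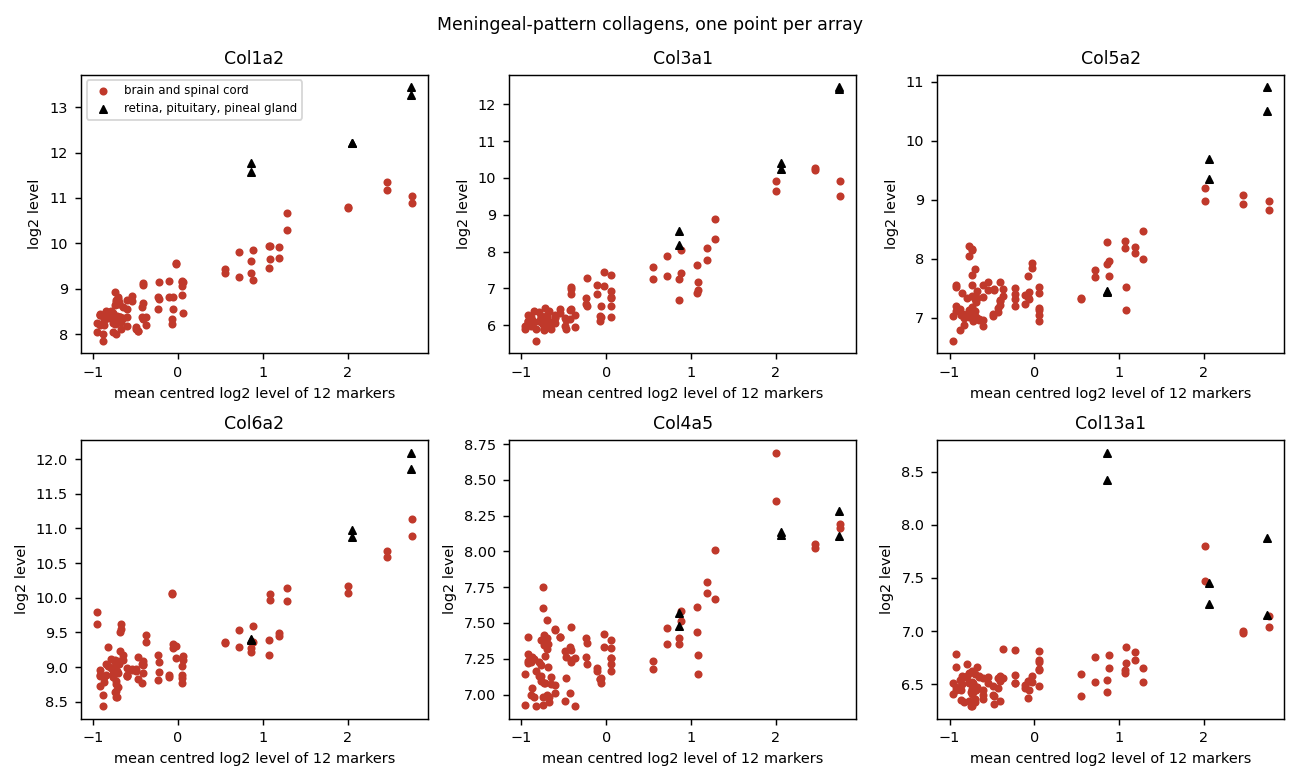
Each point is an array; x is the mean centred log2 level of the 12 meninges and fibroblast markers in its region and y the log2 level of the named collagen gene. Red points are brain and spinal cord, black triangles the retina, pituitary and pineal gland. Col1a2 and Col3a1 rise mainly in the upper part of the marker range and change little in the lower part. Col13a1 leaves its floor in few regions and peaks in the pituitary at a mean of 8.55.

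Col1a2 and Col3a1 formed the pair with the highest correlation of all 861 pairs of collagen genes, at r = 0.95 over 49 regions, where the median pair had 0.12. Their promoter sequences are shown because the regional profiles nearly coincide while the genes lie on different chromosomes. Each window is 300 bases of the RefSeq promoter table, build GRCm38.p6, from 250 bases before to 50 after the transcript start; Col1a2 lies at chr6:4505368-4505667, plus strand, and Col3a1 at chr1:45311288-45311587, plus strand. Capitals mark the TATA box (TATAAA), the CCAAT box (CCAAT) and the GC box (GGGCGG), searched on both strands.
Col1a2: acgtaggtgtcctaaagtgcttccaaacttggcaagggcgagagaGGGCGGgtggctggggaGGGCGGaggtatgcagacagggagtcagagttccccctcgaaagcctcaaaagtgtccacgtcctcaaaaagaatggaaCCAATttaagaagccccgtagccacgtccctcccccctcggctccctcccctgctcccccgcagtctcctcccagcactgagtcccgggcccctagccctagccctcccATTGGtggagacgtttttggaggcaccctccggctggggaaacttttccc
Col3a1: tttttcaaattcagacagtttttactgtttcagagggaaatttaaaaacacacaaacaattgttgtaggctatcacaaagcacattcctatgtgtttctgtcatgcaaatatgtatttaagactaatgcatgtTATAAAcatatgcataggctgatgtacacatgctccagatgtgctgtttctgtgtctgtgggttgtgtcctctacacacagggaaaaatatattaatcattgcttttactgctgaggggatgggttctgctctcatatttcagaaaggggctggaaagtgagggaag
The Col1a2 window held 2 CCAAT boxes, 2 GC boxes and no TATA box. The Col3a1 window held 1 TATAAA match, which lies well upstream of the transcript start, and neither of the other motifs. Among 33 collagen promoters in the table, 5 held a TATA box, 12 a CCAAT box and 21 a GC box, against 14.2%, 37.9% and 35.9% of all 27025 promoters. A match describes letters, not a binding site.

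Against the other 51 regions, POA/BF had 4 collagen genes called higher and 0 lower, where 1.53% of all genes were called higher and 0.115% lower. Col3a1 was 3.37 ± 0.16 (SE) higher on the log2 scale, with means of 10.25 and 6.87 and a limma adjusted p of 7.67e-26. Col1a2 was higher by 2.23 ± 0.12, Col5a2 by 1.43 ± 0.11 and Col6a2 by 1.36 ± 0.08. All 4 belong to the meningeal pattern, and for each the retina and pineal gland overlapped with or exceeded the POA/BF arrays. Within brain and spinal cord, both POA/BF arrays of Col3a1 and Col1a2 lay above every other array. The supraoptic nucleus was higher for Col6a2, and both it and the median eminence overlapped with POA/BF for Col5a2. Beside them, 12 of 12 meninges and fibroblast markers, 4 of 9 mural and 2 of 9 endothelial markers were called higher in POA/BF, the first with a median difference of 2.75. Their part in the collagen difference was not tested. With the region means as the samples, so that the spread is that between regions, none of the 4 was called, each at an adjusted p of 1.00.

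Some genes that process or bind collagen were also called higher in POA/BF. Of 21 measured processing genes, 3 were called higher: Pcolce, an enhancer of procollagen cleavage, by 2.67, Loxl1, a crosslinking enzyme, by 1.13, and Lox, its relative, by 1.01. Of 14 basement membrane partners, Nid1, which links laminin to type IV collagen, was higher by 2.09 and the laminin chain Lama4 by 1.49. None of 9 collagen receptors was called.

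Col19a1, a fibril-associated collagen known from neurons, had the highest r of the 3 genes with a neuronal pattern. It read 9.42 and 9.90 in motor cortex, 9.28 and 9.91 in cingulate cortex, 9.18 and 9.25 in retrosplenial cortex and 8.96 and 9.11 in CA1. Cortex stood above the thalamus, where the highest array read 6.44, and the lowest region was the suprachiasmatic nucleus at a mean of 5.64. The highest mean lay outside cortex, in the mammillary body, whose 2 arrays differed widely at 9.32 and 10.22. The mammillary body, motor and cingulate cortex overlapped, so their order is not resolved.

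Over the 8 regions of cortex and hippocampus, Col19a1 was 2.05 ± 0.06 (SE) higher than over the other 41 regions of brain and spinal cord, with means of 8.84 and 6.79 and a limma adjusted p of 4.32e-38. It was the single collagen gene called there, with 0 lower, where 1.48% of all genes were called higher, 0.775% lower and 2.26% in either direction. With region means as the samples its adjusted p was 3.12e-06. Its r with the list for cortical and hippocampal neurons was 0.71, and 0.85 and 0.72 within the low and high control regions, but Spearman's rho with it was 0.36. The other probe sets of Col19a1 gave r = 0.73 and 0.67 with that list. Over the 5 thalamic regions Col19a1 was lower by 1.06 ± 0.08, the single collagen call there, at means of 6.17 and 7.23, where 1.32% of all genes were called higher, 1.09% lower and 2.41% in either direction. That call was lost with the mean of the gene's probe sets, at -0.58, and with region means as the samples, at an adjusted p of 0.204.

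Col18a1 encodes a basement membrane collagen whose cleaved end is endostatin. It read 10.43 and 10.47 in the cerebellar cortex lobe, 10.24 and 10.34 in the vermis and 10.01 and 10.29 in the pontine nucleus, while the habenula came next at 8.71 and 8.91. These 3 regions and the retina, at 10.65 and 10.69, stood clear of the rest. The median of all 52 regions was 7.90. Against the other regions of brain and spinal cord, cerebellar cortex was higher by 2.44 ± 0.06 (SE), with means of 10.37 and 7.93 and a limma adjusted p of 2.09e-41. The other probe set of Col18a1 showed a smaller rise. It read means of 9.26 in the lobe, 9.09 in the vermis and 9.01 in the pontine nucleus, against 8.43 in the mediodorsal thalamus. With the probe set used, the Pearson r of 0.70 with the cerebellar neuron list was 0.56 without the cerebellar lobe. Pearson's r was 0.74 within the low and 0.35 within the high control regions, and Spearman's rho over all 49 regions was 0.48. Both cerebellar cortex regions and the pontine nucleus are low control regions.

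Col4a2, a chain of the common type IV network of vessels, was assigned to the hypothalamic neuron list at r = 0.63, and to no list without the median eminence, whose removal took r just below 0.6, as did Spearman's rho, at 0.59. It read 9.87 and 10.07 in the median eminence and 9.62 and 9.92 in the arcuate nucleus, but 7.68 and 7.87 in the vermis and 7.29 and 7.52 in the cerebellar lobe. Over 12 hypothalamic regions it was higher by 0.69 ± 0.03 (SE), which is under 2-fold. In cerebellar cortex Col4a2 was lower by 1.42 ± 0.07 (limma adjusted p 1.69e-26), and all 4 arrays there lay below every other array of brain and spinal cord, the lowest of which read 7.95. Cerebellar cortex thus had 1 collagen gene called higher, against 2.78% of all genes, and 2 lower, against 2.73%, with 5.51% called in either direction. The second of these was Col11a1, lower by 1.03 ± 0.10, which missed 2-fold with array medians set equal, at -0.96.

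**Figure D4:**
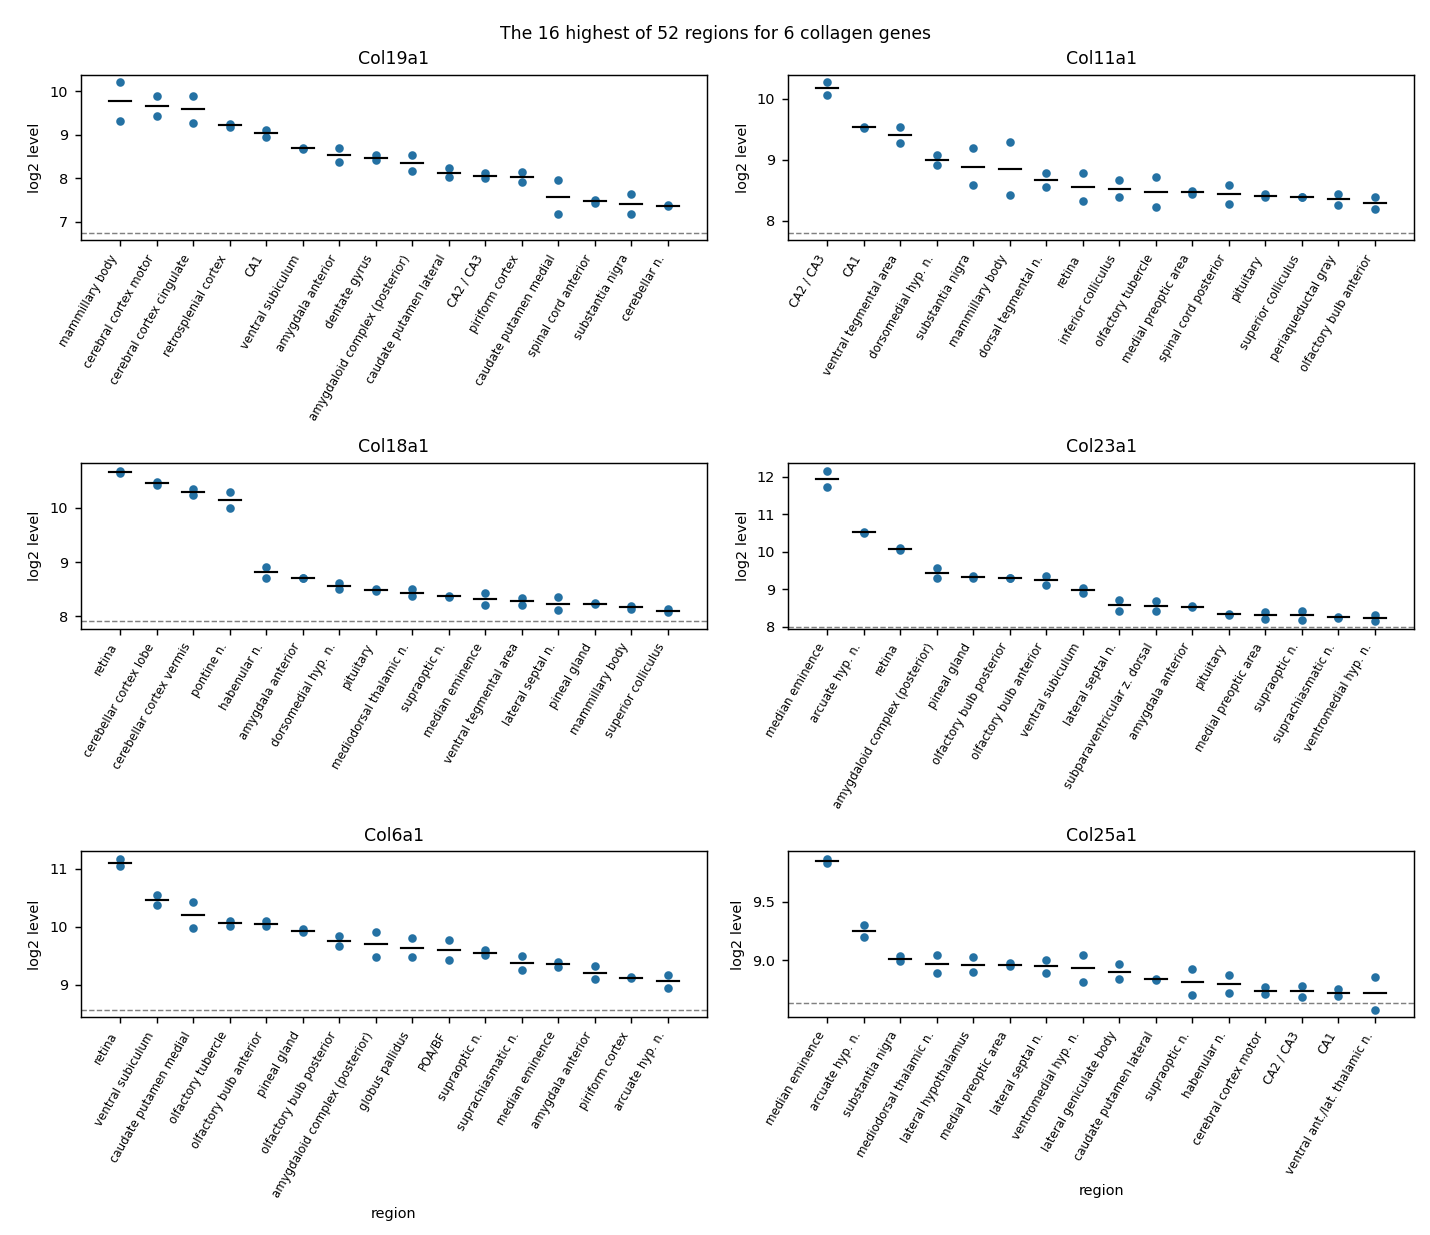
Points are arrays, black bars region means and dashed lines the gene's median region; each panel shows the 16 highest of 52 regions for a gene, on a log2 axis that does not start at 0. Col19a1 is led by the mammillary body and cortex, Col11a1 by CA2/CA3 and CA1, Col18a1 by 4 regions clear of the rest, Col23a1 and Col25a1 by the median eminence and arcuate nucleus, and Col6a1 by the retina and ventral subiculum.

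Further members without an assigned pattern had sharp peaks. Col11a1, a minor chain of cartilage-type fibrils, read 10.07 and 10.27 in CA2/CA3, 9.52 and 9.54 in CA1 and 9.27 and 9.54 in the ventral tegmental area, and its second probe set followed it at r = 0.95. CA2/CA3 stood above CA1, and CA1 overlapped with the ventral tegmental area. Col23a1, a transmembrane collagen, read 11.73 and 12.17 in the median eminence and 10.51 and 10.54 in the arcuate nucleus, against a median region of 7.99. Its r was 0.53 with the meninges list and 0.43 with the hypothalamic neuron list, and its other probe sets were also highest in the median eminence, at 10.91 and 11.04.

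Col25a1 is a transmembrane collagen of neurons, and its probe sets disagreed in size. The brighter one ranged over 1.55, led by the median eminence at 9.83 and 9.86. The other ranged over 6.68, with means of 11.58 in the median eminence, 11.16 in the lateral septum, 11.07 in the mediodorsal thalamus and 10.52 in the arcuate nucleus, down to 4.90 in the pineal gland. The probe sets correlated at r = 0.59 over regions. Which of them reflects the gene was not tested.

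Col6a1, the partner of Col6a2 in type VI collagen, read 10.38 and 10.55 in the ventral subiculum, 9.99 and 10.42 in the medial caudate putamen, 10.01 and 10.10 in the olfactory tubercle and 7.25 and 7.63 in CA1. Over 3 striatal regions it was higher by 1.02 ± 0.08 (SE), at means of 9.64 and 8.62 and a limma adjusted p of 2.48e-18. It was the single collagen call in striatum, with 0 lower, where 2.23% of all genes were called higher, as many lower, and 4.46% in either direction. Striatal arrays ran from 8.37 to 10.42 and overlapped with other regions. The call was lost with region means as the samples, at an adjusted p of 0.0968, and without the arrays labelled lateral hypothalamus, at a difference of 0.99.

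Other members had no call in any comparison within brain and spinal cord. Col6a3, a further type VI chain, read 8.70 and 9.51 in the lateral septum and 8.79 and 9.29 in the pontine nucleus, and these overlapped. Its r with Col6a1 was 0.14, against the 0.76 of Col6a1 with Col6a2. Col9a3, a fibril-associated chain, read 9.39 and 9.76 in CA2/CA3 and 9.18 and 9.95 in the lateral septum, which also overlapped. Col27a1 read 9.97 and 10.17 in the pontine nucleus and 9.96 and 9.98 in the vermis. Col14a1 was highest of brain and spinal cord in the pontine nucleus, at 7.50 and 7.57.

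Hypothalamus and spinal cord had 0 collagen genes called by limma, with and without a variance trend, where of all genes 0.967% were called higher, 0.731% lower and 1.7% in either direction in hypothalamus, and 1.76%, 0.753% and 2.52% in spinal cord. At an unadjusted p under 0.05, 18 of 42 members were higher and 10 lower in hypothalamus, where 33.6% of all genes were higher and 31.9% lower. In spinal cord 7 were higher and 10 lower, where 24.3% and 24.2% of all genes were. The largest differences in spinal cord were 0.48 for Col11a2, a fibrillar chain, and -0.55 for Col4a2.

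Among the members that followed other non-neuronal lists, Col5a3, a fibrillar chain, tracked the ependyma list at r = 0.69 and read 8.89 and 8.98 in the habenula, clear of 8.18 to 8.31 in the retina. Col8a2, a short-chain collagen, tracked the choroid plexus list at 0.65, with 7.46 and 7.97 in the habenula and 7.11 and 7.53 in CA2/CA3. Col16a1 tracked the list for oligodendrocyte precursors at 0.63, with 0.60 for astrocytes, so these 2 lists are hardly separated for it. Col11a2 tracked the list for oligodendrocytes at 0.62. Col1a1, the partner chain of Col1a2, was nearest to the mural list at 0.64, with 0.61 for meninges. Its other probe set gave 0.92 with meninges and ranged over 5.72, so the assignment of Col1a1 turned on the probe set. For Col12a1, a fibril-associated collagen, another probe set gave 0.79 with meninges where the one used gave 0.39, but its highest mean within brain and spinal cord was 7.00, so the former rests on dim values.

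Genes that lie side by side were compared next. Over 49 regions, r was 0.81 for Col3a1 and Col5a2, 0.79 for Col4a1 and Col4a2, 0.76 for Col6a1 and Col6a2, 0.48 for Col4a3 and Col4a4, 0.28 for Col4a5 and Col4a6, 0.27 for Col6a4 and Col6a5 and 0.00 for Col9a1 and Col19a1. For chosen pairs of chains of the same collagen type on separate loci, r ranged from 0.57 for Col4a4 and Col4a5 to -0.18 for Col9a1 and Col9a3. It was 0.53 for Col1a1 and Col1a2, and other such pairs are not given. Among chromosomal neighbours r thus ran from 0.00 to 0.81, and over all pairs the quartiles were -0.04 and 0.30. Col4a6, Col6a4, Col6a5 and Col9a1 were not called by the F test, with ranges of 0.75, 0.51, 0.36 and 0.52. With such small regional differences, a low r in their pairs does not show that the profiles are unrelated.

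Col4a1 and Col4a2, the main chains of vascular basement membranes, are divergent neighbours, and their promoters are shown because both genes had their lowest means in the cerebellar lobe, at 8.63 and 7.40. In GRCm38.p6 the RefSeq windows lie at chr8:11312777-11313076, minus strand, and chr8:11312555-11312854, plus strand, and they share 78 bases. Capitals mark the same motifs as above.
Col4a1: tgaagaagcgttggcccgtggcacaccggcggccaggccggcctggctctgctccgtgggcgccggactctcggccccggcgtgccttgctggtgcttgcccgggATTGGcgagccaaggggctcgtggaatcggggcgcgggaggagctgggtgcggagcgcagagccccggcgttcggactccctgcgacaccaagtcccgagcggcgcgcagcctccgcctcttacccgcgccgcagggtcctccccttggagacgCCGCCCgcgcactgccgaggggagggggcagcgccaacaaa
Col4a2: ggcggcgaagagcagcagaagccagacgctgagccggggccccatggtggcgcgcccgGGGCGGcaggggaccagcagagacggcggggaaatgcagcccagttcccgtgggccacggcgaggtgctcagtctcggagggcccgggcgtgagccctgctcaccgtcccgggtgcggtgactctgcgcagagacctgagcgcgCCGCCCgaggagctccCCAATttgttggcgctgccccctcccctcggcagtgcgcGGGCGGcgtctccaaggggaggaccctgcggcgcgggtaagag
The Col4a1 window held 1 CCAAT box and 1 GC box, the Col4a2 window 1 and 3, and neither held a TATA box. The GC box of the Col4a1 window lies in the shared bases and is also 1 of the 3 of Col4a2. In cerebellar cortex Col4a1 was lower, at -0.63 ± 0.06 (SE), which is under 2-fold, beside -1.42 for Col4a2; the difference between them was not tested.

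**Figure D5:**
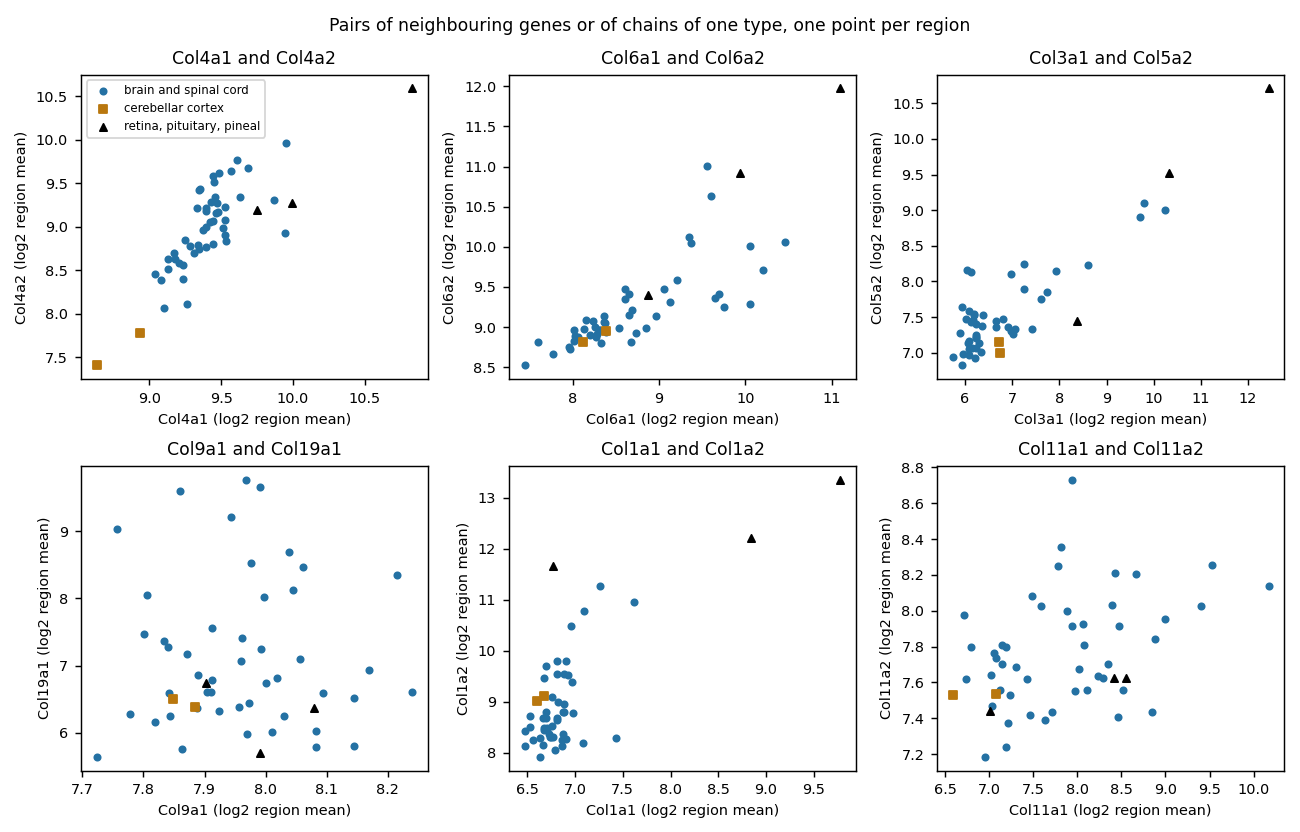
Each point is a region mean on log2 axes for 2 genes; the upper panels and Col9a1 with Col19a1 are neighbouring genes, and the other lower panels are chains of a type. Col4a1 and Col4a2 rise together with cerebellar cortex (squares) at the bottom, and Col9a1 stays within a range of 0.52 while Col19a1 ranges over 4.13.

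Outside brain and spinal cord, the collagen genes differed most in the retina. There 21 of 42 were called higher and 0 lower against the 49 regions of brain and spinal cord, where 13% of all genes were called higher and 8.46% lower, and the median collagen difference was 0.97 against -0.05 over all genes. Col17a1, a transmembrane collagen that anchors epithelia, read 9.44 and 10.82 in the retina. No array of brain and spinal cord exceeded 5.28, and the difference was 5.36 ± 0.12 (SE). That SE uses a spread pooled over all regions, whereas the retina arrays of Col17a1 had an SD of 0.98. Over all genes the retina arrays correlated at 0.972, the lowest of any region. Their median SD was 0.17, against 0.07 over regions, so pooled SEs may understate the spread in the retina. Col8a2, a chain of the membrane under the corneal endothelium, read 11.06 and 11.40 and was higher by 5.23 ± 0.12. Col3a1 was higher by 5.71 and Col1a2 by 4.47. Beside the corneal and pituitary genes on these arrays, 9 of 12 meninges, 7 of 9 mural, 6 of 9 endothelial and 7 of 8 choroid plexus markers were called higher, with median differences of 3.10, 2.15, 2.28 and 3.45. The collagen difference thus belongs to the arrays labelled retina, and the part of each tissue was not tested.

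The remaining retina calls covered most structural classes. Among fibrillar chains, Col5a2 was higher by 3.20, Col1a1 by 2.97 and Col5a1 by 1.01, the last missing 2-fold with array medians set equal, at 0.83. All 3 main type VI chains were called, Col6a2 at 2.77, Col6a3 at 2.62 and Col6a1 at 2.42. Of the type IV chains, Col4a4 was higher by 2.83, Col4a2 by 1.64 and Col4a1 by 1.45. Col14a1, a fibril-associated collagen of tendon and skin, read 9.95 and 9.98 and was higher by 3.35. Col23a1 was higher by 1.97 and was not called with region means as the samples, at an adjusted p of 0.058.

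Genes that build or bind collagen matrices were called in the retina too: 13 of 21 processing genes, led by Pcolce at 5.35, 10 of 14 basement membrane partners, led by Nid1 at 3.21, and 3 of 9 receptors, led by the collagen-binding kinase Ddr2 at 2.15, beside the 13% of all genes called higher. In the pineal gland 7 of 21 processing genes and 2 of 14 partners were called higher, beside 7.52% of all genes, and in the pituitary 9 and 5, beside 6.1%. The pituitary had 1 processing gene lower, the procollagen protease Adamts3, at -1.24. Adamts3 was also the single processing gene called in striatum, higher by 3.48.

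In the pineal gland 12 collagen genes were called higher and 1 lower, where 7.52% of all genes were called higher, 7.78% lower and 15.3% in either direction. Col8a1, a short-chain collagen of vessel walls and basement membranes, read 12.79 and 13.01 against at most 7.77 on arrays of brain and spinal cord, a difference of 6.01 ± 0.10 (SE; limma adjusted p 3.88e-53). Its partner Col8a2 was higher by 2.32, and Col7a1, which forms anchoring fibrils, by 1.94 with arrays at 9.84 and 10.32. Col3a1 was higher by 3.60, Col1a2 by 3.33 and Col1a1 by 2.03, while Col19a1 was lower, at -1.43, fell short of 2-fold with the mean of its probe sets, at -0.91, and had an adjusted p of 0.431 with region means as the samples. With region means as the samples, Col23a1 and Col6a1 were not called either. In the same arrays 9 of 12 meninges markers and 8 of 8 choroid plexus markers were higher, and their part was not tested.

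The pituitary had 5 collagen genes called higher and 0 lower, where 6.1% of all genes were called higher and 7.24% lower. Col1a2, at 11.57 and 11.76, was higher by 2.79 ± 0.12 (SE). Col13a1, at 8.42 and 8.68, was higher by 1.98 ± 0.09 and exceeded every array of brain and spinal cord, the highest of which read 7.80 in the median eminence. Col3a1 was higher by 1.64 ± 0.16, Col27a1, a fibrillar chain of cartilage, by 1.09 ± 0.08 and Col4a4 by 1.02 ± 0.10. Of these, Col3a1 reached 0.95 with the mean of its probe sets, and Col27a1 0.95 without replicate 2. Meninges markers were called higher for 6 of 12. The comparisons with retina, pineal gland and pituitary share their reference regions, so genes called in several are not independent results.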

How the data were processed

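Total RNA, on 2 arrays for each of 52 regions, was labelled with biotin and hybridised to Affymetrix mouse arrays. Per the submitters' processing notes, the authors deposited log2 values made with RMA, whose version is not stated; they were used without further normalization. The 34945 probe sets with 1 symbol, of 45101, gave 18193 genes, and 932 with several genes were left out. RMA flattens differences at low intensity, and the number of arrays limits the precision.

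A model with a mean per region was fitted in limma 3.58.1 (R 4.3.3; 52 residual degrees of freedom, prior 7.87), with two-sided tests and Benjamini-Hochberg adjustment over all genes of a comparison. Genes were called at an adjusted p under 0.05 and 2-fold. Recovery was tested on simulated data. POA/BF was compared with 51 regions, other groups with the remaining regions of brain and spinal cord. Members and lists were chosen with earlier results of these data known. Members were named for a meningeal or neuronal pattern, the 20 largest ranges, a call, or neighbouring position, and structural classes are textbook knowledge; Col25a1, Col5a3, Col11a2, Col15a1, Col2a1, Col26a1, Col22a1 and Col20a1 were named after their values were seen. Alternatives covered normalization, dim genes, probe sets, variance, the replicate block, control sets, region means, replicates and thresholds; those without the arrays labelled lateral hypothalamus or POA/BF were chosen after seeing the data.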

Additional observations from a re-analysis of the deposited data

How the results depend on the processing

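No direction reversed under any alternative run. Taken singly, outside these runs, other probe sets of called members gave 56 differences. Of these, 53 had the sign of the probe set used, and 38 also reached 2-fold. Without the fold threshold, collagen calls rose to 19 in POA/BF, 22 in cortex and hippocampus, 23 in striatum, 25 in thalamus, 28 in hypothalamus, 27 in cerebellar cortex, 16 in spinal cord, 35 in retina, 19 in pituitary and 32 in pineal gland. Of all genes, 27.6%, 56.3%, 51.9%, 52%, 62.5%, 64.3%, 43.1%, 73%, 56.4% and 57.3% passed in the same order. In cortex and hippocampus 3 of these members were higher and 19 lower, where 4321 of 18193 genes were higher and 5922 lower. In thalamus 5 members were higher and 20 lower, where 4045 of all genes were higher and 5416 lower. With region means as the samples, 0 were called in POA/BF, striatum and thalamus; with the control set added to that fit, 0 in striatum and thalamus. The mean of probe sets left 0 in thalamus, and 0 were called in striatum without the arrays labelled lateral hypothalamus. With Spearman's rho, 3 genes had a meningeal pattern (Col1a2, Col3a1 and Col6a2) and 0 a neuronal one. At r of at least 0.7, 1 was neuronal (Col19a1), and within the low control regions 6. The low control regions are fewer, and no share of all genes is given at either setting. Neither count is therefore read against the main one. Leaving out replicate 1 or 2 of the target regions alone gave 5 calls in POA/BF, 20 to 22 in retina and 4 to 5 in pituitary; a lone target array is then assumed to vary like the other regions, whose 2 arrays give the spread. The causes were not tested. Probe sets near background limit the dim genes, such as Col13a1 and Col17a1 outside the retina.

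With the replicate number as a block, the counts were those of the fit without it: 4 in POA/BF, 1 each in cortex and hippocampus, striatum and thalamus, 0 in hypothalamus and spinal cord, 3 in cerebellar cortex, 21 in retina, 5 in pituitary, 13 in pineal gland and 34 for the F test. The numbers do not pair the samples: of 1326 pairs of regions, 327 had a correlation of same-numbered deviations over 0.1 and 328 under -0.1. In 41 of 52 regions the strongest link was with an array of the same number, a hint from the data and not from the design.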
